A study of Mus musculus with 9 samples.

Results

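Acute-phase proteins are plasma proteins that the liver makes in larger or smaller amounts during inflammation. The 10 genes described here encode the serum amyloid A proteins (Saa1, Saa2, Saa3), the orosomucoids (Orm1, Orm2, Orm3), haptoglobin (Hp), lipocalin 2 (Lcn2) and the pentraxins C-reactive protein (Crp) and serum amyloid P component (Apcs). They were chosen by gene symbol from the deposited count table, where all 10 were found among 55401 genes, and all 10 passed the filter on low counts that left 15717 genes to test. Gene expression was measured by RNA sequencing of whole liver in female mice, in 3 groups of 3: healthy livers, untreated HCC and miR-22-treated HCC.

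Healthy livers came from wild-type mice given no treatment. The protocol in the labels, shared by all 3 groups, names mice obtained at 6 weeks of age, and the age of the healthy mice at harvest is not given in the labels. In both HCC groups, wild-type mice received myr-AKT and Nras-v12 with the sleeping beauty transposase by hydrodynamic injection into the tail vein, which brings plasmids mainly into hepatocytes. At 1 week after the oncogenes, untreated HCC mice received the AAV8 blank control and miR-22-treated HCC mice received AAV8 that overexpressed miR-22 from a CMV promoter, which is not specific to hepatocytes. Livers were harvested 5 weeks after the oncogenes, 4 weeks after AAV. The AAV dose in the labels was 1 trillion genome copies per kg. The study's methods give a higher dose. The labels' strain field names C57BL/6, whereas their protocol and the series design name FVB/N. The protocol also lists a β-catenin plasmid, which the series design does not name for these livers. The healthy livers had neither plasmids nor AAV, so tumors, injection and vector cannot be told apart in any comparison with them.

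The acute-phase response is driven mainly by interleukin 6 family cytokines, which signal through gp130 and STAT3, and by interleukin 1 and tumor necrosis factor, which signal through NF-κB. The C/EBPβ and C/EBPδ factors act with both arms on acute-phase promoters in hepatocytes, and Socs3 is a STAT3 target that limits the signal. In mice, the serum amyloid A proteins and Apcs are major acute-phase reactants, while Crp responds far less than it does in humans. Lcn2 binds bacterial siderophores and is also made by neutrophils and by epithelial and tumor cells, Hp binds free hemoglobin, and the orosomucoids carry lipophilic drugs and steroids.

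Library totals were 16664659 to 23908392 counts. TMM factors, which scale libraries to a common composition, ran from 0.865 to 0.872 for the healthy group, from 1.12 to 1.22 for untreated HCC and from 0.942 to 1.03 for miR-22-treated HCC. Levels are TMM-normalized CPM (counts of a gene scaled to a common library size), and a gene was called where edgeR's quasi-likelihood test gave a Benjamini-Hochberg adjusted p under 0.05 with a fold change over 1.5. The liver label was checked on hepatocyte markers, whose summed level was 143688 to 147678 CPM in healthy livers, 56701 to 71725 CPM in untreated HCC and 86940 to 107985 CPM in miR-22-treated HCC. Scaling by library totals alone shifted the median log2 fold change of all tested genes to 0.43 for untreated HCC against healthy livers, to -0.23 for miR-22-treated against untreated HCC and to 0.21 for miR-22-treated HCC against healthy livers.

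The sequences below are those that bear on the treatment and on the genes whose levels moved most or in opposite directions. The mature miRNA delivered by AAV is shown with its seed, bases 2 to 8, in capitals. Promoters run from 250 bases before to 50 bases after the transcription start and are printed 5′ to 3′ on the strand of the gene, with every match to a searched motif in capitals. All are from RefSeq on GRCm38.p6.
mmu-miR-22-3p, chr11:75463772-75463793, plus strand: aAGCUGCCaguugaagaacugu
Lcn2 promoter, chr2:32387690-32387989, minus strand: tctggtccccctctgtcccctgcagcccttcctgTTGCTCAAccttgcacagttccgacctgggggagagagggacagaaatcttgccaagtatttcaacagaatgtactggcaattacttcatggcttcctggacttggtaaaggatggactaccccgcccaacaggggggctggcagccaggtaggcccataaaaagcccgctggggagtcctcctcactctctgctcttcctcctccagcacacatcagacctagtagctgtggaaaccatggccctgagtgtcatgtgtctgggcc
Saa1 promoter, chr7:46742931-46743230, minus strand: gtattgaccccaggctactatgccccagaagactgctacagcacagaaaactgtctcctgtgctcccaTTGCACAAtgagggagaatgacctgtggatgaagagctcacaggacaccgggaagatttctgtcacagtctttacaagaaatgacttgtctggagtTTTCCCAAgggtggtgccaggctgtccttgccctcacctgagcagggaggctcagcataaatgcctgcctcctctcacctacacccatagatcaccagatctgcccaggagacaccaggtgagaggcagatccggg
Orm2 promoter, chr4:63362199-63362498, plus strand: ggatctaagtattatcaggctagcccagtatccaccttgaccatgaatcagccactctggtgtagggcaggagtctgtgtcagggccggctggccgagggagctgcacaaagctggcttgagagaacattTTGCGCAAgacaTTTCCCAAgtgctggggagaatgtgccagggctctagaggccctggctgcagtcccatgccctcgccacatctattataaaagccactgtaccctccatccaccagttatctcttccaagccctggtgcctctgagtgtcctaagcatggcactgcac
Orm3 promoter, chr4:63355908-63356207, plus strand: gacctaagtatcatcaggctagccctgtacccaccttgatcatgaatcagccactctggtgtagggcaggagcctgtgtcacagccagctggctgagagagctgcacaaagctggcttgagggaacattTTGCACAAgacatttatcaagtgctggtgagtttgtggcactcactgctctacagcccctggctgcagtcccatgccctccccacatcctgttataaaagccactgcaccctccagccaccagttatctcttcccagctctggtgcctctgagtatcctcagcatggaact
Crp promoter, chr1:172697806-172698105, plus strand: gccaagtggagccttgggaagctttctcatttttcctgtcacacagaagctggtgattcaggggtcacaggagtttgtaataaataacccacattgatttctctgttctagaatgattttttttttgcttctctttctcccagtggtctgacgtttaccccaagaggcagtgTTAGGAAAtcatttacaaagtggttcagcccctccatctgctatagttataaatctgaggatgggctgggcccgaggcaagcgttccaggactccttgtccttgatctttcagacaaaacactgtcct

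Promoters were matched for 8 of the 10 genes, and Hp and Orm1 were not matched. Both strands were searched for a STAT motif (TTCNNNGAA), a C/EBP motif (TTNNGNAA), an NF-κB motif (GGNNNTTCC) and an HNF1 motif (GTTAATNAT). The C/EBP letters occurred in 7 of the 8 promoters and in 40.7% of 32851 RefSeq promoters of the same length. Saa3 held 4 matches, Orm2 and Saa1 held 2 each, and Lcn2, Saa2, Orm3 and Crp held 1 each. The STAT letters, present in 8.30% of promoters, were found in Apcs alone among the 8, and the NF-κB letters, present in 18.5%, in Saa3 alone, where they overlapped a C/EBP match. The HNF1 letters, present in 0.801% of promoters, matched in none of the 8. With the transcription start as base 1 and no base 0, the C/EBP matches of Orm2 lay at -120 to -113 and -108 to -101, and the only match of Orm3 lay at -121 to -114. These matches are letters in a window and were not tested as binding sites.

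The Orm2 and Orm3 promoters were 86.6% identical over 305 aligned columns and those of Saa1 and Saa2 were 95.3% identical over 301. No 3′ UTR of the 10 genes held a match to the miR-22-3p seed, with 3′ UTRs of 946 bases in Crp and 113 to 232 bases in the others. Over the tested genes with an annotated 3′ UTR, 16.9% of 13550 held such a match. That share was not matched for 3′ UTR length, and short 3′ UTRs have fewer places for a match. It therefore cannot show a lack of sites in the 10 genes. Mature miR-22 was not measured here.

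In GRCm39, the serum amyloid A genes lie on chromosome 7, with Saa3 at 46361422 to 46365576, Saa1 at 46389916 to 46392547 and Saa2 at 46401214 to 46403737. The orosomucoid genes lie side by side on chromosome 4, with Orm1 at 63261052 to 63272189, Orm3 at 63274208 to 63277748 and Orm2 at 63280686 to 63284115. Crp at 172525614 to 172660598 and Apcs at 172721528 to 172722611 are neighbors on chromosome 1, Hp is on chromosome 8 at 110301759 to 110305804 and Lcn2 on chromosome 2 at 32274645 to 32278264. The annotation puts exons of Gm52743 over those of Orm1 and exons of Gm38051 over those of Crp, so part of their reads is uncertain in libraries without strand.

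Close copies share sequence within these families, which bears on how reads are divided between them. Of the 31-base windows of the main transcript, 26.4% in Saa1, 28.6% in Saa2, 33.0% in Orm1, 35.0% in Orm2 and 9.0% in Orm3 were found letter for letter in another gene. No window of 150 bases, the length of each read, was shared by any of the 10 genes. The levels of single copies in the Saa and Orm families are therefore given with the sum of the copies.

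To ask how acute-phase genes differed with HCC, untreated HCC was compared with healthy livers. Lcn2, Hp, Saa1, Saa2 and Orm2 rose, Orm3, Crp and Apcs fell, and Saa3 and Orm1 did not pass the test. Thus 5 of the 10 genes were called higher and 3 lower, where 22.7% of all tested genes were called higher and 18.1% lower. The groups did not overlap for 9 of the 10 genes, against 65.3% of all tested genes. The median log2 fold change was 1.09 over the 10 genes and 0.01 over all tested genes. In bulk tissue, fewer cells of a type and less RNA per cell cannot be told apart.

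**Figure D1:**
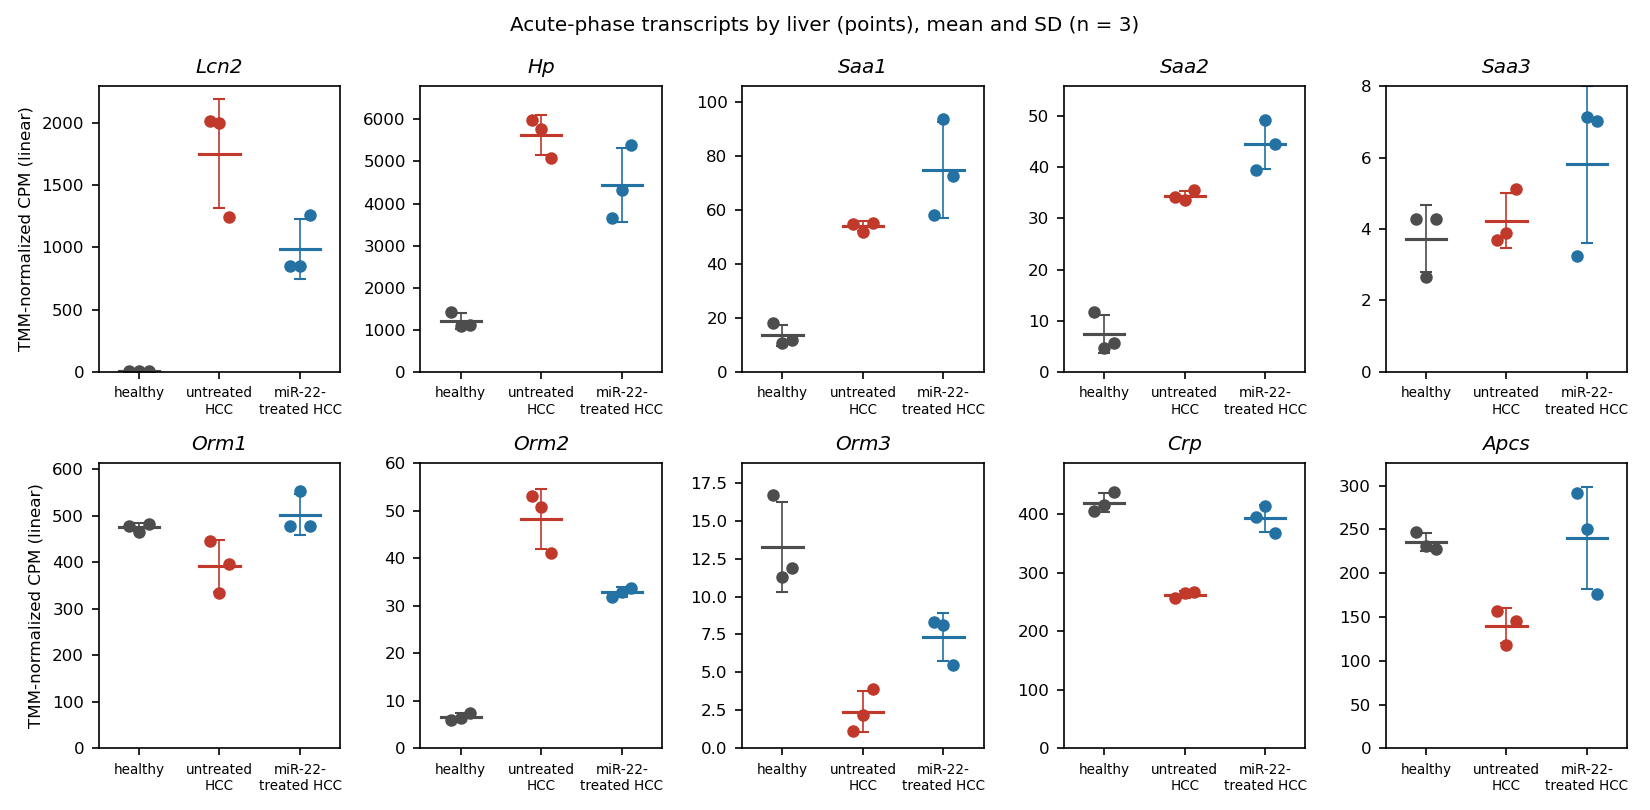
TMM-normalized CPM on linear axes that start at 0 for each acute-phase gene, with a point for each liver, the group mean as a horizontal line and the SD as an error bar (n = 3). Lcn2 lay between 2.80 and 6.41 CPM in healthy livers and at 1244 CPM or above in untreated HCC, whereas Crp, Apcs and Orm3 were lowest in untreated HCC.

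Lcn2 had the largest change of the 10 genes. It was at 6.41, 5.80 and 2.80 CPM in healthy livers, from 51 to 102 counts per library. In untreated HCC it was at 2013, 1995 and 1244 CPM, from 33295 to 44557 counts. The groups were far apart, and the difference was 352-fold, a log2 fold change of 8.46 ± 0.35 (SE, n = 3 per group, edgeR adjusted p = 6.6e-09). Per transcript length, Lcn2 went from rank 6730 among 15635 genes in healthy livers to rank 19 in untreated HCC.

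Hp was already abundant in healthy livers, at 1419, 1079.7 and 1122 CPM. In untreated HCC it was at 5991, 5784 and 5083 CPM, and every liver was above every healthy liver. The log2 fold change was 2.22 ± 0.18 (SE, adjusted p = 6.4e-07), or 4.66-fold. In rank per length, Hp went from 60 to 6 of 15635 genes. The ratio of Hp to albumin (Alb) counts was 0.0106 to 0.0138 in healthy livers and 0.0994 to 0.137 in untreated HCC.

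The serum amyloid A genes did not move as a block. Saa1 was at 18.0, 10.8 and 11.8 CPM in healthy livers and at 54.9, 52.0 and 55.4 CPM in untreated HCC, a log2 fold change of 2.00 ± 0.19 (adjusted p = 2.6e-06). Saa2 was at 11.6, 4.73 and 5.66 CPM in healthy livers and at 34.1, 33.5 and 35.6 CPM in untreated HCC, a log2 fold change of 2.23 ± 0.24 (adjusted p = 6.2e-06). The untreated HCC livers lay close together for both genes, and above all healthy livers. The sum of Saa1 and Saa2 gave a log2 fold change of 2.09 ± 0.21 (adjusted p = 3.0e-06). Saa3, the copy best known from macrophages and adipocytes, was at 4.27, 2.65 and 4.29 CPM in healthy livers and at 3.70, 3.90 and 5.12 CPM in untreated HCC. Its groups overlapped, with a log2 fold change of 0.18 ± 0.30 (adjusted p = 0.630).

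The orosomucoid copies moved in opposite directions. Orm2 was at 5.97, 6.30 and 7.47 CPM in healthy livers and at 53.0, 50.8 and 41.1 CPM in untreated HCC, a log2 fold change of 2.87 ± 0.13 (adjusted p = 1.0e-08). Orm3 was at 16.7, 11.3 and 11.9 CPM in healthy livers and at 1.17, 2.19 and 3.88 CPM in untreated HCC, where its counts were 25, 49 and 104, a log2 fold change of -2.43 ± 0.33 (adjusted p = 4.6e-05). Neither gene's groups overlapped. Orm1, by far the most abundant copy, was at 477, 465 and 483 CPM in healthy livers and at 446, 333 and 397 CPM in untreated HCC. Its value of -0.28 ± 0.12 (adjusted p = 0.0670) missed the test, and with library totals alone it was 0.14. The sum of the Orm copies gave -0.16 ± 0.12 (adjusted p = 0.260), so the sum did not pass the test.

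Orm2 made up 1.20% to 1.49% of the Orm counts of healthy livers. Its share was 9.30% to 13.2% with untreated HCC and 5.55% to 6.56% with miR-22 treatment. No liver of any group overlapped with another group in this share. Each of the 3 comparisons gave an exact permutation p of 0.1 (two-sided, n = 3 per group), the smallest that 3 against 3 allows, and 0.20 after adjustment over 6 comparisons of copy shares. The Saa2 share of Saa1 and Saa2 counts was 30.5% to 39.3%, 38.3% to 39.2% and 34.4% to 40.4% in the same order. Its exact permutation p values were 0.4 for untreated HCC against healthy livers, 0.7 for miR-22-treated against untreated HCC and 0.3 for miR-22-treated HCC against healthy livers, and the groups overlapped (n = 3 per group, two-sided, adjusted 0.48, 0.70 and 0.45).

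Both pentraxins fell. Crp, which binds phosphocholine on microbes and damaged cells, was at 406, 416 and 437 CPM in healthy livers and at 257, 265 and 266 CPM in untreated HCC. Its log2 fold change was -0.68 ± 0.09 (adjusted p = 5.2e-05). Apcs, a component of all amyloid deposits, was at 248, 231 and 228 CPM in healthy livers and at 157, 118 and 146 CPM in untreated HCC, a log2 fold change of -0.75 ± 0.16 (adjusted p = 0.0016). All healthy livers were above all untreated HCC livers in both genes. With library totals alone the falls remained in direction but were not called, at -0.25 for Crp (adjusted p = 0.0201, under 1.5-fold) and -0.33 for Apcs (adjusted p = 0.0635).

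**Figure D2:**
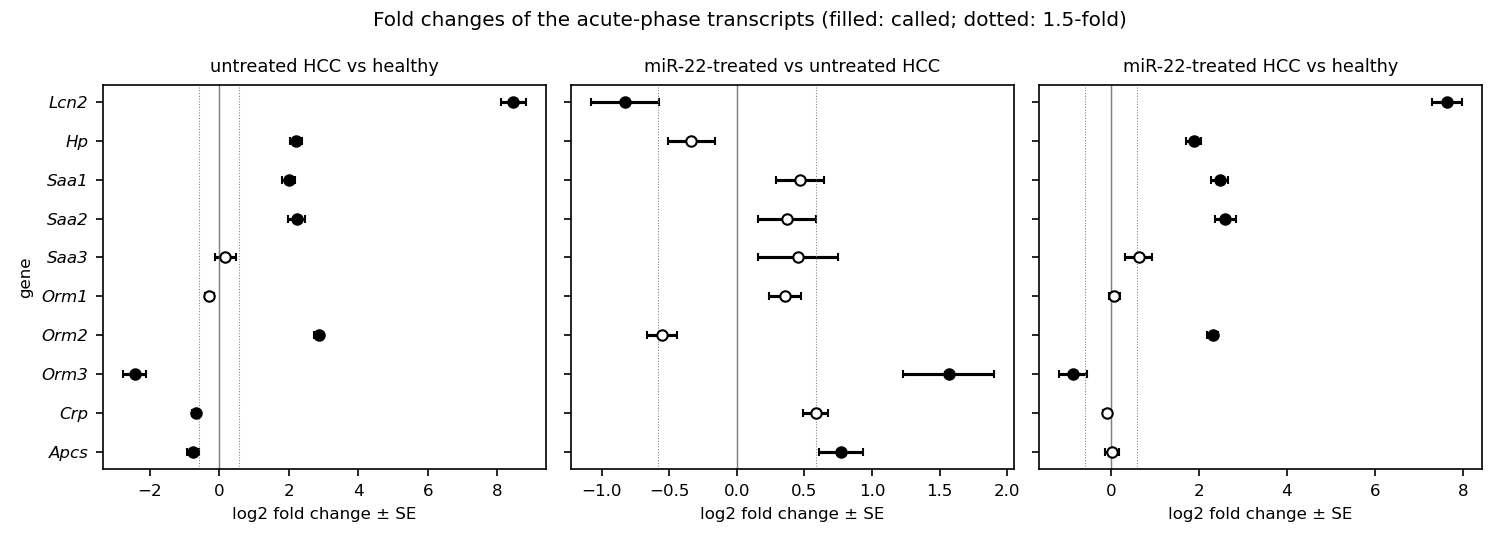
Log2 fold change (horizontal axis, ± SE) of each acute-phase gene in the 3 comparisons, each panel with its own horizontal scale; filled points were called, open points were not, and dotted lines mark a 1.5-fold change. Lcn2 stands apart at 8.46 in untreated HCC against healthy livers, and Orm3 at 1.57 in miR-22-treated against untreated HCC.

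Next, miR-22-treated HCC was compared with untreated HCC. Apcs and Orm3 rose and Lcn2 fell, so 2 of the 10 genes were called higher and 1 lower, against 8.32% and 5.47% of all tested genes. In TMM-normalized CPM, the groups did not overlap for 7 of the 10 genes, against 39.3% of all tested genes. The median log2 fold change was 0.41 over the 10 genes and 0.002 over all tested genes. Both this comparison and the previous one use the untreated HCC livers, so their values are not independent of each other.

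Lcn2 was at 849.8, 848 and 1259.6 CPM in miR-22-treated HCC. Livers 2 and 3 were below all untreated HCC livers, but liver 4 was just above untreated liver 4, at 1244 CPM, so the groups overlapped. As a share of library counts the groups did not overlap, at 0.0798% to 0.129% in treated and 0.139% to 0.244% in untreated livers. The log2 fold change was -0.83 ± 0.25 (edgeR adjusted p = 0.0308). Leaving out untreated liver 2 gave -0.72 (adjusted p = 0.109), untreated liver 3 gave -0.73 (0.107), treated liver 2 gave -0.73 (0.0990) and treated liver 3 gave -0.73 (0.122), and the call was lost each time. DESeq2 gave -0.86 with an adjusted p of 0.0505, which also missed. The size of the fall thus changed little under these choices, whereas its call rested on each of these livers and on the test used.

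Hp was at 3647, 4317 and 5385 CPM in miR-22-treated HCC, a range that overlapped with untreated HCC. As a share of library counts it did not overlap, at 0.362% to 0.553% against 0.569% to 0.706%. Its log2 fold change was -0.34 ± 0.17 (adjusted p = 0.178). The ratio of Hp to Alb counts ran from 0.0530 to 0.0898 after treatment, below the lowest untreated ratio of 0.0994. Alb took 6.16% to 6.86% of library counts in treated and 5.11% to 5.73% in untreated livers. The lower ratio therefore does not rest on Hp alone. For Orm2, at 31.8, 33.0 and 33.9 CPM, every treated liver was below every untreated liver. The log2 fold change was -0.55 ± 0.11 with an adjusted p of 0.0045, but at 1.47-fold it was under the fold limit. It was called without untreated liver 4, at -0.66 (adjusted p = 0.0014). Hp, Orm2 and Lcn2 had all been called higher in untreated HCC.

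Orm3 was at 8.35, 8.10 and 5.52 CPM in miR-22-treated HCC, above all untreated livers. The log2 fold change was 1.57 ± 0.33 (adjusted p = 0.0056). Apcs was at 292, 251 and 177 CPM, also above all untreated livers though widely spread, with a log2 fold change of 0.77 ± 0.16 (adjusted p = 0.0051). With library totals alone, Apcs was at 0.54 (adjusted p = 0.0142), under the fold limit. Crp was at 396, 415 and 369 CPM with a log2 fold change of 0.58 ± 0.09 (adjusted p = 0.0012), which at 1.497-fold was the gene nearest to the limit of 1.5. Without untreated liver 3 Crp was called at 0.59, without untreated liver 4 at 0.59 and without treated liver 4 at 0.63.

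Orm1 was at 477, 553 and 477 CPM in miR-22-treated HCC, above all untreated livers. As a share of library counts its groups overlapped, at 0.0474% to 0.0520% in treated and 0.0407% to 0.0514% in untreated livers. Its log2 fold change of 0.36 ± 0.12 had an adjusted p of 0.0476, with a fold under 1.5. The sum of the Orm copies gave 0.29 ± 0.12 (adjusted p = 0.0865). Saa1 was at 58.3, 93.9 and 72.6 CPM and Saa2 at 39.6, 49.3 and 44.6 CPM, so that neither overlapped with untreated HCC at this scaling. As shares of library counts both genes overlapped. Treated livers were at 0.00580% to 0.00883% for Saa1 and 0.00393% to 0.00464% for Saa2. Untreated livers were at 0.00620% to 0.00635% for Saa1 and 0.00393% to 0.00409% for Saa2. Their log2 fold changes of 0.47 ± 0.18 (adjusted p = 0.0748) and 0.37 ± 0.21 (adjusted p = 0.239) missed the test, as did the sum of Saa1 and Saa2 at 0.43 ± 0.19 (adjusted p = 0.123). Without treated liver 2, Saa1 was called at 0.62 (adjusted p = 0.0280). Saa3, at 3.26, 7.14 and 7.04 CPM, overlapped with untreated HCC and had a log2 fold change of 0.45 ± 0.29 (adjusted p = 0.297).

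Compared with healthy livers, miR-22-treated HCC was called higher in Lcn2, Hp, Saa1, Saa2 and Orm2 and lower in Orm3. These 5 and 1 of the 10 genes stand beside 16.9% and 7.05% of all tested genes. The groups did not overlap for 6 of the 10 genes, against 48.8% of all tested genes. The median log2 fold change was 1.26 over the 10 genes and 0.02 over all tested genes.

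In this comparison the log2 fold change was 7.63 ± 0.34 for Lcn2 (adjusted p = 2.8e-08), 1.88 ± 0.18 for Hp (6.8e-06) and 2.32 ± 0.13 for Orm2 (1.1e-07). It was 2.47 ± 0.20 for Saa1 (adjusted p = 1.8e-06) and 2.60 ± 0.24 for Saa2 (6.2e-06), and their sum gave 2.52 ± 0.21 (2.4e-06). Crp and Apcs overlapped with healthy livers, with values of -0.09 ± 0.09 (adjusted p = 0.465) and 0.03 ± 0.16 (adjusted p = 0.917). Orm1 was at 0.08 ± 0.12 (adjusted p = 0.634) and Saa3 at 0.64 ± 0.30 (adjusted p = 0.121). Saa3 was called without treated liver 2, at 0.91 (adjusted p = 0.0152).

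Orm3 was the gene called lower, at -0.86 ± 0.31 (adjusted p = 0.0446). This call was lost when any healthy liver was left out, with adjusted p of 0.160, 0.0621 and 0.0692 for livers 1, 2 and 3. It was also lost without treated livers 2, 3 and 4, at 0.0522, 0.0664 and 0.140, and without untreated liver 3, at 0.0577. With library totals alone it was -0.68 (adjusted p = 0.0974). The sum of the Orm copies, which holds the higher Orm2 and the lower Orm3, gave 0.13 ± 0.12 (adjusted p = 0.399) and did not pass the test.

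Levels were compared between genes per kilobase of transcript. In healthy livers the order of mean CPM per kilobase was Hp at 897, Orm1 at 576, Crp at 245, Apcs at 242, Saa1 at 17.8, Orm3 at 16.4, Saa2 at 11.3, Orm2 at 8.49, Lcn2 at 5.47 and Saa3 at 3.71. Crp and Apcs overlapped between livers, as did Saa1 with Orm3 and with Saa2, Orm3 with Saa2, Saa2 with Orm2, and Lcn2 with Saa3. In untreated HCC the order was Hp at 4175, Lcn2 at 1913, Orm1 at 475, Crp at 153, Apcs at 144, Saa1 at 71.4, Orm2 at 62.3, Saa2 at 52.8, Saa3 at 4.21 and Orm3 at 2.99. Crp overlapped with Apcs, Orm2 with Saa2, and Saa3 with Orm3.

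In miR-22-treated HCC the order of mean CPM per kilobase was Hp at 3306, Lcn2 at 1077, Orm1 at 609, Apcs at 246, Crp at 229.5, Saa1 at 99.0, Saa2 at 68.2, Orm2 at 42.4, Orm3 at 9.06 and Saa3 at 5.77. Apcs overlapped with Crp, and Orm3 with Saa3. The order therefore changed most for Lcn2, which stood ninth in healthy livers and behind Hp alone in both HCC groups.

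**Figure D3:**
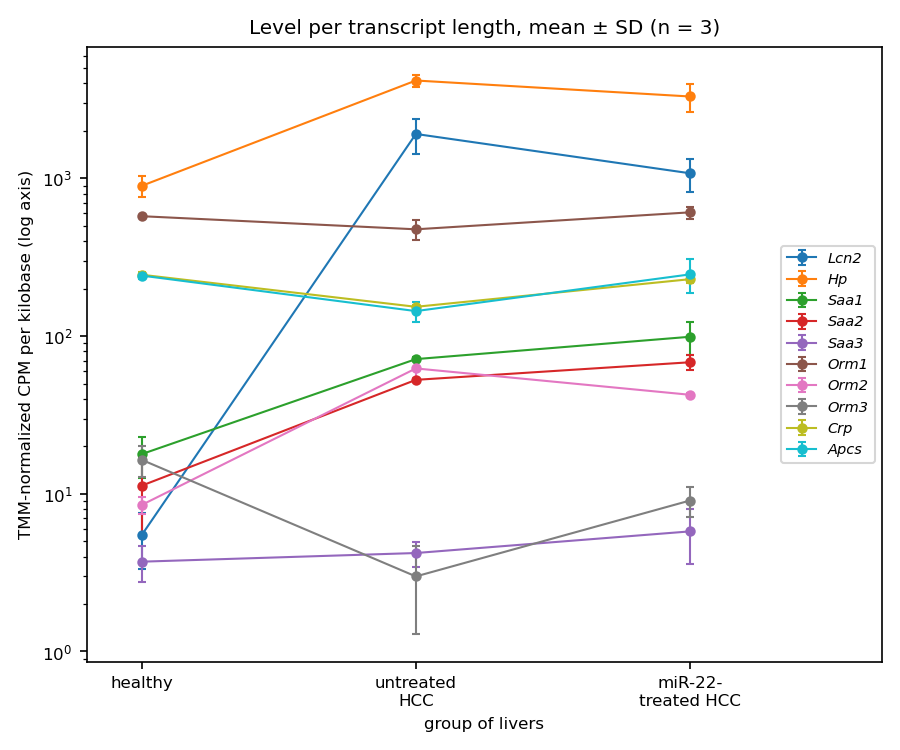
TMM-normalized CPM per kilobase of transcript (log axis) in the 3 groups for each acute-phase gene, as the mean with the SD over 3 livers, with lines joining the means. Lcn2 crosses from 5.47 in healthy livers to 1913 in untreated HCC, while Orm3 drops from 16.4 to 2.99.

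The 10 genes took 0.193% to 0.228% of all counts of healthy livers. They took 0.815% to 1.05% with untreated HCC and 0.577% to 0.805% with miR-22 treatment. Hp and Lcn2 together made 48.6% to 54.6% of the 10 genes' counts in healthy livers and 86.9% to 90.1% in untreated HCC. With miR-22 treatment they made 77.5% to 84.8%. Albumin, the most familiar negative acute-phase protein, took 8.66% to 8.97%, 5.11% to 5.73% and 6.16% to 6.86% of library counts in the same order of groups.

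Other acute-phase genes were taken from lists written for this description. Of 29 other positive acute-phase genes, 7 were called higher and 9 lower in untreated HCC against healthy livers, with a median log2 fold change of -0.35, beside the 22.7% and 18.1% of all tested genes given above. Cd14, the lipopolysaccharide co-receptor, rose by 5.57, Cp (ceruloplasmin) by 1.41 and Hpx (hemopexin, which binds heme) by 1.02. Hamp, the iron hormone hepcidin, fell by 2.72, Saa4, the constitutive serum amyloid A, by 1.45, and the fibrinogen chains Fgb and Fgg by 0.69 and 0.64. Fga, C3, Serpina3n, Lbp and Steap4 were not called, at -0.54, -0.44, -0.35, 0.58 and 0.34.

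Of 12 negative acute-phase genes, 10 were called lower and 1 higher (Trf, transferrin, at 0.61) in untreated HCC, with a median of -1.05, beside 18.1% and 22.7% of all tested genes. Alb fell by 1.14 (adjusted p = 3.5e-04), Ttr (transthyretin) by 0.80 (6.2e-04) and Serpina6, which carries corticosteroids, by 2.85 (5.4e-07). Between miR-22-treated and untreated HCC, 7 of the 12 were called higher and 0 lower, with a median of 0.66, while Alb at 0.55 (adjusted p = 0.0635) missed. Among the other positive genes, 9 of 29 were called higher and 2 lower, with a median of 0.41, where 8.32% and 5.47% of all tested genes were called. Hamp rose by 1.34, Saa4 by 1.20, Mt2 (metallothionein) by 2.00 and Fgg by 0.60, and Cd14 fell by 0.95.

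Against healthy livers, miR-22-treated HCC had 10 of the 29 other positive genes called higher and 2 lower (Hamp and Serpina3m), with a median of 0.02. Of the 12 negative genes, 0 were called higher and 4 lower (Serpina6, Fetub, Hrg and Alb), with a median of -0.37. Over all tested genes 16.9% were called higher and 7.05% lower, and the 2 lower calls of the positive list are near that share. Hpx was at 1.12 (adjusted p = 1.7e-04) and Hamp at -1.39 (0.0013).

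**Figure D4:**
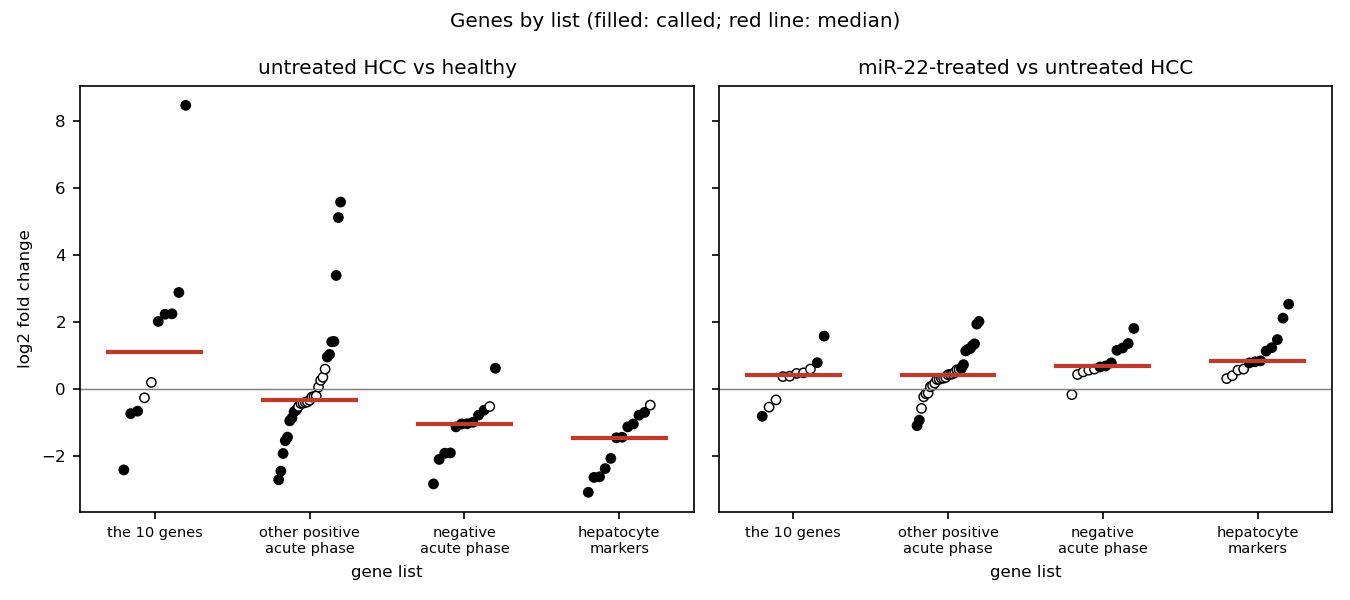
Log2 fold change (vertical axis) of each tested gene in 4 lists for untreated HCC against healthy livers and for miR-22-treated against untreated HCC; filled points were called and red lines are list medians. The negative acute-phase and hepatocyte lists lie mostly below 0 in the left panel (medians -1.05 and -1.46) and above 0 in the right panel (medians 0.66 and 0.81).

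Among the cytokines that induce this response, Il6 had 0 to 3 counts in every library and Il22 had 0, so no fold is given. Of 15 cytokine genes listed, 8 passed the filter, Lif and Tnf among them only through the HCC livers where they are higher, so the count of calls is partly set by the filter. Of these, 4 were called higher (Lif, Tnf, Clcf1 and Il33) and 1 lower (Il18) in untreated HCC, beside 22.7% and 18.1% of all tested genes. Lif, a gp130 cytokine, was at 0.115 ± 0.091 CPM (SD, n = 3) in healthy livers, with 1 to 4 counts per library, and 9.63 ± 2.04 CPM in untreated HCC, and rose by 6.25 on the log2 scale. Tnf rose by 3.64 (adjusted p = 5.8e-04), from 0 to 12 counts in healthy livers to 60 to 108 in untreated HCC. Il1b was at 0.40 (adjusted p = 0.227). In miR-22-treated against untreated HCC, 0 were called higher and 2 lower, beside 8.32% and 5.47% of all tested genes. These were Clcf1 and Lif, the latter at -1.32 (adjusted p = 0.0043), with Tnf at -1.28 (0.105) and Il1b at 0.27 (0.502). DESeq2 and the replicate block each gave 1 call in this list in place of 2.

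Of 19 tested receptors and adaptors, 4 were called higher (Osmr, Il1r1, Il10rb and Il22ra1) and 4 lower (Il6ra, Lifr, Il1rap and Il11ra1) in untreated HCC (median 0.05), which is near the 22.7% and 18.1% called over all tested genes. Osmr, the oncostatin M receptor, rose by 2.99 and Il1r1 by 0.64, while Il6ra fell by 1.72. In miR-22-treated against untreated HCC, 4 were called higher (Il6ra, Lifr, Il1rap and Tnfrsf1b) and 1 lower (Osmr), with a median of 0.05, beside 8.32% and 5.47% of all tested genes. Il6ra rose by 1.51 (adjusted p = 0.0016) and Osmr fell by 0.67 (adjusted p = 0.0116), and Il1r1 was at 0.26.

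Of 24 transcription factors and feedback genes, 8 were called higher and 7 lower in untreated HCC (median -0.07), beside 22.7% and 18.1% of all tested genes. Relb, an NF-κB subunit, rose by 3.58, Socs3 by 1.68 and Cebpd by 1.59. Klf15 fell by 1.87, Cebpb was at -0.27 (adjusted p = 0.157), Nfkbiz at 0.12, and Stat3 at 0.34 (adjusted p = 0.0081) was under the fold limit. In miR-22-treated against untreated HCC, 4 were called higher (Klf15, Cebpb, Nr3c1 and Creb3l3) and 4 lower (Relb, Socs3, Bcl3 and Nfkb2), with a median of 0.05, beside 8.32% and 5.47% of all tested genes. Cebpb rose by 1.07 (adjusted p = 7.7e-04) and Klf15 by 1.70, Relb and Socs3 each fell by 0.96, and Cebpd, Stat3 and Nfkbiz were not called, at 0.48, 0.13 and -0.13.

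Of 18 tested receptors and binding partners of the acute-phase proteins, 8 were called higher and 3 lower (Cd163, Fcgr2b and Lrp1) in untreated HCC (median 0.58). Over all tested genes 22.7% were called higher and 18.1% lower, and the count of lower calls is near that share. Cd163, the scavenger receptor for haptoglobin bound to hemoglobin, fell by 1.58 (adjusted p = 6.3e-05) while Hp rose. Slc22a17, a receptor for Lcn2, rose by 1.12 (adjusted p = 0.0392), and Mmp9, which forms a complex with Lcn2, rose by 2.28. Mmp9 had 4 to 14 counts per library in healthy livers and passed the filter through the HCC livers. The count of higher calls in this list is therefore partly set by the filter. In miR-22-treated against untreated HCC, 1 was called higher and 0 lower (median 0.03), beside 8.32% and 5.47% of all tested genes. That gene was Cd163, at 0.74 (adjusted p = 0.0332), a call that was lost with the replicate block, and Slc22a17 was at -0.52 (adjusted p = 0.391).

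Against healthy livers, miR-22-treated HCC had 4 cytokine genes called higher and 0 lower, 4 receptors and adaptors higher and 1 lower (median 0.05), 5 transcription factors and feedback genes higher and 2 lower (median 0.11) and 5 binding partners higher and 1 lower (median 0.51). Over all tested genes 16.9% were called higher and 7.05% lower, and the counts of the receptors and of the transcription factors are near these shares. Cd163 was at -0.84 (adjusted p = 0.0096), Cebpb at 0.80 (0.0018) and Socs3 at 0.72 (0.0250).

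Markers of other cell types that can make some of these proteins are given beside them, and their counts of calls stand beside the same shares over all tested genes, 22.7% higher and 18.1% lower in untreated HCC against healthy livers and 8.32% and 5.47% in miR-22-treated against untreated HCC. Ductal and progenitor markers summed to 140 to 148 CPM in healthy livers, 3627 to 6613 CPM in untreated HCC and 1772 to 2934 CPM in miR-22-treated HCC. In healthy livers Cdh1, which hepatocytes also express, gave the largest part of this sum, at 70.9 CPM against 26.8 CPM for Spp1 (osteopontin). In untreated HCC Spp1 gave most of it, at 4620.3 CPM against 189 CPM for Cdh1. Of 11 tested, 10 were called higher in untreated HCC and 7 were called lower in miR-22-treated against untreated HCC. Cftr and Cldn4 had 1 to 3 counts per library in healthy livers and passed the filter through the HCC livers, so this count too is partly set by the filter. Krt19 was called in neither comparison, at 0.89 (adjusted p = 0.151) and -0.01 (adjusted p = 0.991), and no marker was called in the other direction. These sums are lowest and highest in the same groups as Lcn2, and their part in the level of Lcn2 was not tested.

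Neutrophil markers summed to 2.27 to 5.28 CPM in healthy livers, 22.04 to 29.2 CPM in untreated HCC and 21.0 to 34.5 CPM in miR-22-treated HCC. Of 15 markers 7 were tested, and most of these passed the filter through the HCC livers where they are higher, since Prtn3, Ltf, Cxcr2 and S100a8 had 0 to 6 counts per library in healthy livers. That the tested markers were called higher in untreated HCC, such as S100a8 at 3.30, is therefore largely set by the filter. In miR-22-treated against untreated HCC 0 of the 7 were called. The defining markers Ly6g, Elane, Camp and Ngp were at 0 in healthy livers, and Ly6g was also at 0 in untreated HCC. Their part in the level of Lcn2 was not tested.

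Macrophage markers summed to 461 to 574 CPM in healthy livers, 580 to 645 CPM in untreated HCC and 663 to 692 CPM in miR-22-treated HCC. Of 15, 7 were called higher and 1 lower (Timd4) in untreated HCC (median 0.26), with Gpnmb at 3.35 and Adgre1 at 0.26, and 0 were called in miR-22-treated against untreated HCC (median 0.06). Gpnmb had 2 to 4 counts per library in healthy livers and Trem2 had 3 to 9. Both passed the filter through the HCC livers, so the count of higher calls among macrophage markers is partly set by the filter. Adipocyte markers summed to 11.2 to 15.0, 31.6 to 61.9 and 32.7 to 83.7 CPM in the same order, with 2 of 3 tested called higher (Cidec and Plin4) and 1 lower (Adrb3) in untreated HCC and 1 called higher (Adrb3) in miR-22-treated against untreated HCC. Cidec and Plin4, which encode lipid droplet proteins, carried the higher sums, with Cidec at 3.59 CPM in healthy livers and 37.7 CPM in untreated HCC. The defining marker Adipoq had 12 counts in all healthy livers, 1 in all untreated HCC livers and 10 in all miR-22-treated HCC livers. In the same order Cfd had 13, 3 and 6, and Plin1 had 4, 1 and 11. Hepatocyte markers had 11 of 12 called lower and 0 higher in untreated HCC (median -1.46), led by Serpina1c at -3.10, and 8 called higher and 0 lower in miR-22-treated against untreated HCC (median 0.81), led by Tat at 2.52. Their part in the lower Crp, Apcs and Orm3 levels of untreated HCC was not tested.

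**Figure D5:**
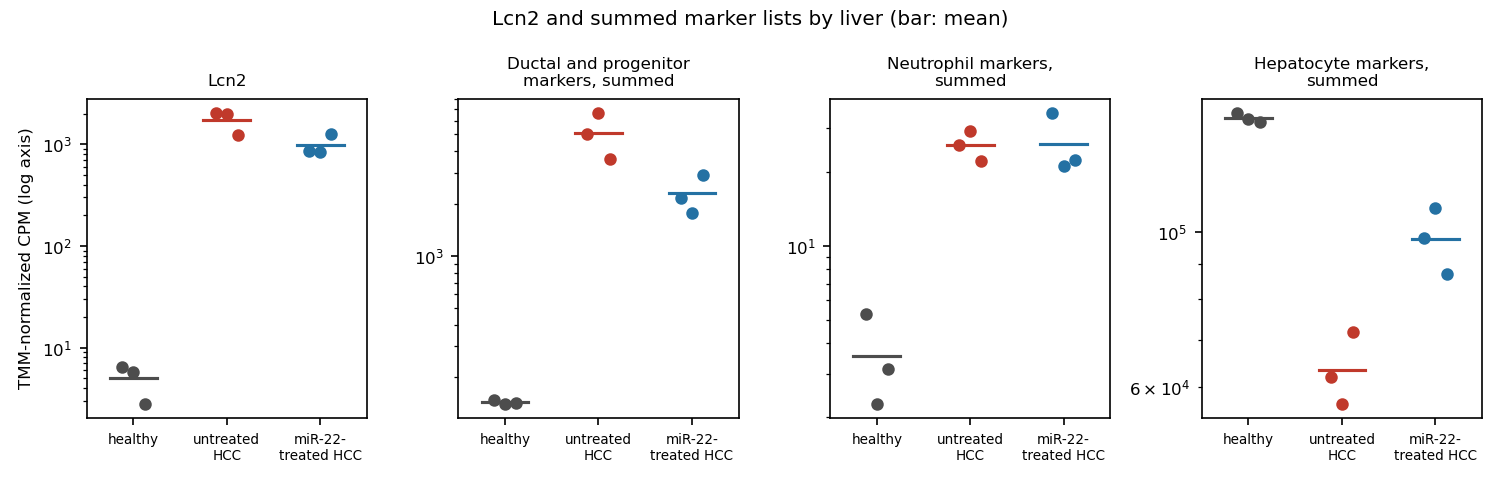
TMM-normalized CPM (log axes, each panel with its own scale) of Lcn2 and of summed marker lists, with a point for each liver and the group mean as a bar (n = 3). Lcn2 and the ductal and progenitor sum (140 to 148 CPM in healthy livers, 3627 to 6613 in untreated HCC) are highest in untreated HCC, while the neutrophil sums of both HCC groups overlap (22.04 to 29.2 and 21.0 to 34.5 CPM).

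The genes whose pattern was most like that of a member were found by the root mean square difference of centered log2 values over the 9 libraries. A pseudocount of 1 was added to CPM before the log, which shrinks the changes of genes at low levels. For Lcn2 these were Spp1 at 0.566, H19 at 0.717 and Afp at 0.891. Mean CPM of Spp1 was 26.8 in healthy livers, 4620.3 with untreated HCC and 2017 with miR-22 treatment, and that of the fetal liver gene Afp was 14.2, 1430.4 and 779. For Saa1 they were Mmp27 at 0.263, Csad at 0.277 and Col6a5 at 0.279. Mmp27 was low, with means of 0.459, 3.89 and 5.75 CPM, so its place depends on the pseudocount. For Crp they were Tsc1 at 0.0621, Zranb1 at 0.0757 and Lamp2 at 0.0773, and Tsc1 had means of 52.1, 31.3 and 47.3 CPM. The points share libraries and depth, and a small difference says only that the levels followed each other over these livers.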

How the data were processed

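RNA was measured in 9 whole livers, 3 per group, grouped by the labels. Per the labels and the study's methods, the authors made non-directional libraries, read pairs of 150 bases, used FastQC 0.11.7 and quantified with Salmon on GRCm39, with DESeq2 1.18 downstream. The deposited values used here are raw counts per gene. The authors' normalized table was not used here.

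Tests used edgeR 4.0.16 under R 4.3.3 (filterByExpr, TMM, quasi-likelihood F test, two-sided, 3 groups in 1 fit, no covariates). A call needed a Benjamini-Hochberg adjusted p under 0.05 over 15717 genes and a fold over 1.5. DESeq2 1.42.0, limma 3.58.1 (pseudocount 1), other scalings and filters (including at least 10 counts in every library), a replicate block and leaving out each liver were alternatives. Scaling by library totals alone was added after the data were seen. Scripts were tested on simulated data. Replicate pairs differed beyond sampling noise (chi-square per degree of freedom 6.13 to 28.4), so no library was counted as a duplicate. Whether livers were sampled once per mouse is not given in the labels, so p-values measure the spread between these samples, which may be technical.

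Named genes were the 10 members, fixed genes of the pathway, the called gene with the largest change in each list for the first 2 comparisons, and the 3 genes nearest to Lcn2, Saa1 and Crp. Other genes named beside list counts were chosen after their values were seen. Members and lists were chosen with earlier results of these data known. Lists share genes, such as Alb, Ttr and Apoa1 (negative acute phase and hepatocyte), Mmp9 and C1qa. Figures were drawn with matplotlib 3.10.9 in Python 3.11.15, and exact tests used scipy 1.17.1.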

Additional observations from a re-analysis of the deposited data

How the results depend on the processing

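Over the values of the 10 genes under the alternatives, 545 kept direction and call, 18 lost the call, 13 gained it and 9 changed sign. With similar copies summed, 5 of 7 entries were called in untreated HCC against healthy livers and 3 in miR-22-treated HCC against healthy livers, where 8 and 6 of 10 genes had been called. In miR-22-treated against untreated HCC, 3 genes were called, 2 to 5 when each liver was left out, 5 of them without untreated liver 4, and 6 with the adjusted p alone. Cytokine ligands had 1 call with DESeq2 and 1 with the replicate block in place of 2, binding partners 0 with the block in place of 1, macrophage markers 1 with DESeq2 in place of 0, and hepatocyte markers against healthy livers 4 with the block in place of 7. Changes of sign were in values that had not been called: Orm1 was at 0.14 with library totals alone and Saa3 ran from -0.0181 (without healthy liver 2) to 0.285 (without healthy liver 3), in untreated HCC against healthy livers. In miR-22-treated HCC against healthy livers, Crp was at 0.0906 with library totals alone, and Apcs at -0.00413 with DESeq2, -0.00421 with RLE factors, -0.00376 with limma, -0.0129 without healthy liver 3 and -0.00904 without treated liver 3, within a range of -0.151 (without treated liver 2) to 0.204 (without treated liver 4) when each liver was left out. The cause was not tested.

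Same-numbered HCC livers did not deviate together (r of -0.16, -0.23 and -0.31 between untreated and treated livers 2, 3 and 4), so the numbers were not taken as pairs. With the replicate block, Lcn2 in miR-22-treated against untreated HCC was at -0.83 (adjusted p = 0.0874) and Orm3 in miR-22-treated HCC against healthy livers at -0.74 (adjusted p = 0.201), and both calls were lost. Calls over all genes between the HCC groups went from 2167 to 1745. The lowest count of the 10 genes in any library was 25, for Orm3 in untreated liver 2.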
